A study of Mus musculus with 30 samples.

Results

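Solute carriers are the membrane proteins named Slc that move nutrients, metals, ions and metabolites into cells and between their compartments. Members were the gene rows of the count table whose symbol starts with Slc and whose mean over all 30 libraries was 5 CPM or more, with Slc2a1, Slc2a3, Slc2a6, Slc16a1, Slc16a3 and Slc7a11 left out by name. CPM, the unit of level here, is a gene's read count divided by the library size and scaled to a library of 1 M reads. The rule found 166 of the 25611 rows. Of 391 rows with such a symbol, 219 fell below the threshold, 23 of them with no count in any library. The members just inside it were Slc25a35 at a mean of 5.43 CPM, Slc25a14 at 5.29 CPM and Slc27a3 at 5.21 CPM, and the rows just outside were Slc13a3 at 4.80 CPM, Slc25a42 at 4.40 CPM and Slc6a12 at 4.31 CPM. Members were thus chosen by their measured mean CPM, so their levels are given as a description. In 150 members every one of the 10 groups reached the threshold, and Slc7a2 alone reached it in fewer than 5 groups. Slc7a2 reached it in 3 groups, so it had to differ between groups to be a member at all. Slc9a3r1, Slc7a6os and Slc2a4rg-ps carry the letters Slc in their names but are not carriers, and Slc4a1ap is an adaptor protein that was counted with the ion carriers.

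A solute carrier moves its substrate either down a gradient, by exchange for another solute, or together with sodium or protons. Families carry a number after Slc, and the number gives a fair guide to the substrate: Slc7 proteins carry amino acids and in many cases pair with the heavy chain Slc3a2, Slc30 and Slc39 proteins move zinc in opposite directions, Slc25 proteins sit in the inner mitochondrial membrane, and Slc35 proteins bring nucleotide sugars into the Golgi and the endoplasmic reticulum. In dendritic cells and macrophages, carriers of the endosome and lysosome export the amino acids, peptides, sugars and metals that digestion of engulfed material sets free.

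Mouse bone marrow was cultured for 6 to 7 days with FLT3L at 200 ng/ml to give dendritic cells, and came from mice with a knockout of Rubcn (KO) or from wild-type mice (WT). Rubcn encodes Rubicon, a protein of the class III PI3-kinase complex that acts in LC3-associated phagocytosis. Each genotype was left untreated or was treated for 30 min or 4 h, either with ovalbumin protein (OVA) or with apoptotic cells of Jurkat, a T-cell leukaemia line of human origin, which makes 10 groups of 3 RNA-seq libraries. No other allele or agent stood in the labels, which do not say whether the 3 libraries of a group came from separate mice, so the p-values measure the spread between these samples, which may be technical.

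The median library held 44.9 M counts. The range was 9.73 M to 51.6 M, and replicate 3 of KO at 30 min OVA was the shallowest. Levels below are CPM on library sizes scaled by TMM, a method that sets the typical gene to no change, and its factors were 0.765 to 0.842 in the 4 h Jurkat libraries against 1.03 to 1.07 in the others. In all 5 conditions Rubcn itself was lower in KO, at 70.4 to 75.8 CPM in untreated KO cells against 95.6 to 104.6 CPM in untreated WT cells (log2 difference -0.44, SE 0.0472, FDR 1.69e-07). The labels do not say which part of the gene was deleted. Replicate 2 of KO at 4 h Jurkat had 3.90% of its counts in the ribosomal RNA gene Rn45s, against 0.384% or less in the other 29 libraries. Fixed lists of marker genes also differed between genotypes: in untreated cells the summed level of 11 plasmacytoid dendritic cell genes was 3242 to 3303 CPM in WT and 2815 to 2996 CPM in KO, that of 7 basophil and mast cell genes 22.8 to 29.3 CPM and 57.6 to 89.3 CPM, and that of 10 stromal genes 795 to 902 CPM and 1006 to 1307 CPM. In such bulk samples, fewer cells of a type and less RNA per cell cannot be told apart.

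In untreated WT cells the most counted members were Slc44a2, a choline transporter-like protein, at 603 ± 25.3 CPM (SD, n = 3), and Slc6a6, the taurine transporter, at 483 ± 11.6 CPM. Per kilobase of exon the order changed, with Slc25a5, the adenine nucleotide translocase that exchanges ADP for ATP across the inner mitochondrial membrane, first at 164.8 CPM per kb. Slc46a3, a lysosomal carrier, followed at 73.3 CPM per kb and Slc44a2 at 69.5 CPM per kb. The sum of all members was 10972 to 11092 CPM in untreated WT libraries and 11678 to 12400 CPM in WT at 4 h Jurkat, higher on the TMM scale. On total counts it was lower, at 1.15% to 1.16% of all counts in untreated WT libraries and 0.938% to 0.959% at 4 h Jurkat, so its direction depends on the scaling. The highest group mean was a median of 1.61 times the lowest over the members. The ratio was 1.05 for Slc25a5 and 1.09 for Slc39a7, a zinc carrier of the endoplasmic reticulum, and 39 for Slc7a2, 13 for Slc25a22, 9.99 for Slc26a11, 9.48 for Slco2b1 and 8.44 for Slc15a3. One of the 2 groups at 4 h Jurkat was the highest group for 64 members and the lowest for 89.

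Apoptotic Jurkat cells for 4 h changed most solute carriers in WT cells, in both directions. Against untreated WT cells 60 members were higher and 85 lower at a false discovery rate (FDR) under 0.05, 145 of 166 in all, where 79.5% of all genes tested and 86.3% of genes at a mean of 5 CPM or more were called. Among those genes of like level 38.4% were higher and 47.9% lower, so members were called about as often as other genes. At least a 2-fold change was found in 38 members, 16 higher and 22 lower, where 29.8% of all genes and 23.4% of genes at 5 CPM or more changed that far. The median log2 change was -0.19 over members and -0.02 over all genes. Scaled by total counts instead of TMM, the median over all genes was -0.42 and 34 members were higher and 116 lower. That scale moved all members downward, so it could not turn a fall into a rise. All 85 falls were still called as falls, which therefore says nothing on how firm they are. Of the 60 rises, 34 stayed higher, 16 were not called and 10 turned to falls. The direction of a rise smaller than this shift therefore depends on the scaling.

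**Figure D1:**
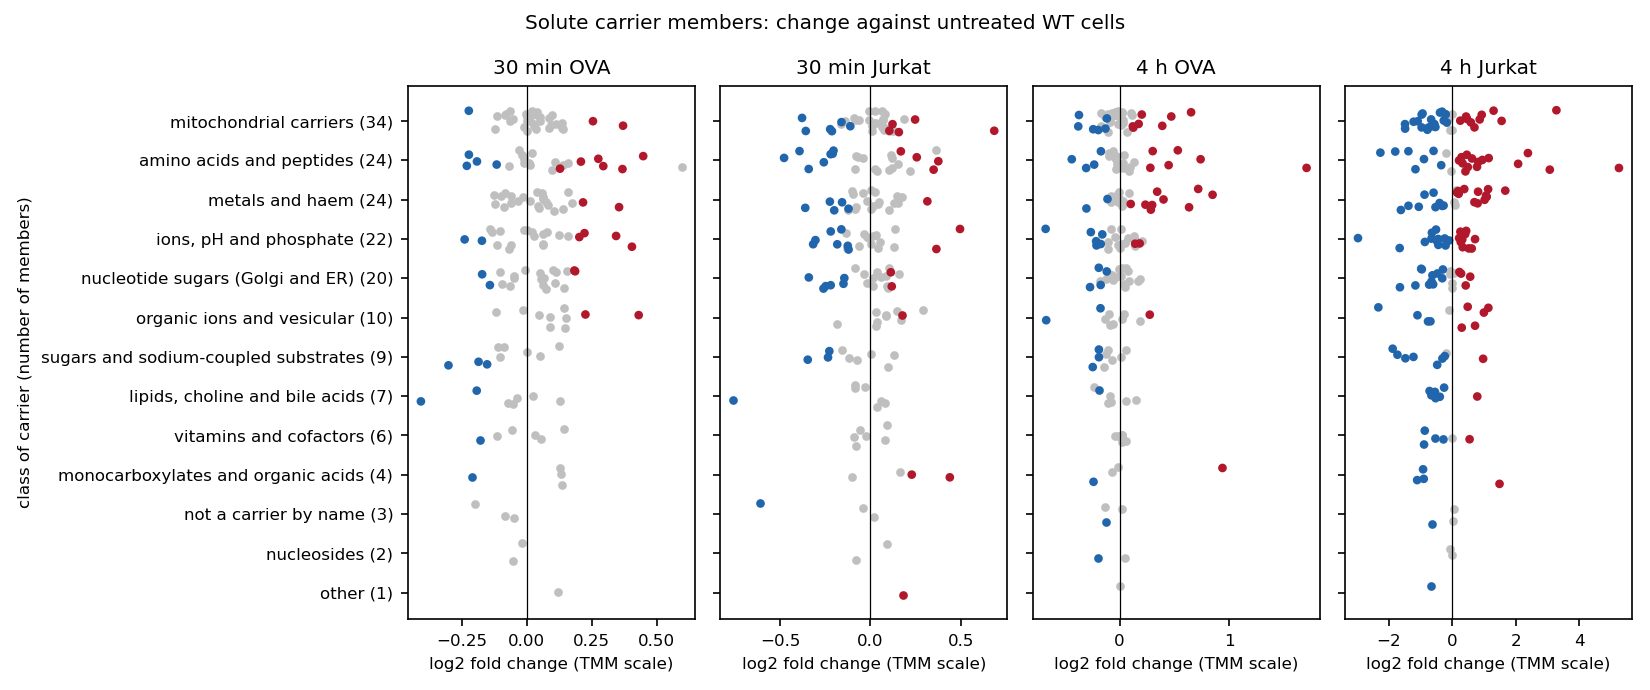
Log2 fold change of the 166 members against untreated WT cells, by class of carrier, with 1 point per member and a separate horizontal scale for each of the 4 treatments. Red points were called higher and blue points lower at an FDR under 0.05, and 145 members were called at 4 h Jurkat against 34 at 30 min OVA. With total counts, 34 members were higher and 116 lower at 4 h Jurkat.

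Carriers of amino acids and peptides included Slc7a2, which had the largest rise of the 166 members, and rose more often than they fell on the TMM scale. Of 24 in this class, 15 rose and 7 fell at 4 h Jurkat in WT, and 5 rose and 4 fell at least 2-fold, with a median log2 change of 0.38. Among genes at 5 CPM or more 38.4% were higher and 47.9% lower on the TMM scale. On total counts 9 of the class were higher and 11 lower. Slc7a2, the cationic amino acid transporter CAT2 that brings arginine into activated macrophages, stood at 2.05, 1.27 and 1.37 CPM in the untreated libraries and at 61.5, 63.2 and 53.9 CPM at 4 h Jurkat. The rise was 5.26 on the log2 scale (SE 0.17, FDR 8.56e-22). No treated library came near the level of an untreated one. Slc7a2 passed the threshold of membership only through the groups where it was high, so its rise is given as a description.

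Slc15a3 (PHT2), which exports histidine and small peptides from the endosome and lysosome, went from 84.6, 78.9 and 77.2 CPM to 632, 723 and 677 CPM, a rise of 3.08 (SE 0.0687, FDR 2.02e-25). Slc7a8 (LAT2), an exchanger of neutral amino acids, went from 23.8, 24.02 and 23.7 CPM to 117, 137 and 120 CPM, a rise of 2.39 (SE 0.0707, FDR 1.17e-22). Slc15a2 (PEPT2), a proton-coupled peptide transporter of the cell surface, went from 9.66, 8.67 and 8.14 CPM to 32.8, 42.0 and 37.1 CPM, a rise of 2.08 (SE 0.0809, FDR 7.70e-20). In each of the 3 genes the groups lay far apart. Slc7a7, which exports cationic amino acids as a partner of Slc3a2, rose by 1.15 from 5.52, 4.31 and 4.71 CPM to 10.3, 11.8 and 10.4 CPM. Slc3a2 itself, the CD98 heavy chain, stood at 137, 139 and 141 CPM in untreated cells and at 272, 264 and 270 CPM at 4 h (log2 change 0.95, SE 0.0315, FDR 1.64e-21). Slc7a5 (LAT1) and Slc7a1 (CAT1) rose less, by 0.50 and 0.46, and neither was called on total counts. Slc7a6 was the 1 member of the Slc7 family that fell, by 0.34.

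The fallers of this class included importers of neutral amino acids and lysosomal carriers. Slc43a2 (LAT4), which carries leucine and other large neutral amino acids, stood at 228, 228 and 236 CPM in untreated WT libraries and at 51.9, 47.7 and 44.8 CPM at 4 h Jurkat. It fell by 2.26 on the log2 scale (SE 0.056, FDR 2.33e-24), and no library of either group came near the other group. Slc36a1, a proton-coupled amino acid carrier of the lysosome, went from 50.05, 51.98 and 53.6 CPM to 16.2, 14.4 and 14.3 CPM (log2 change -1.79, SE 0.0577, FDR 8.65e-22). Slc38a1, an importer of glutamine, fell by 1.38 from 352, 332 and 351 CPM to 132, 137 and 130 CPM. Slc38a9, the lysosomal carrier through which arginine is sensed by mTORC1, fell by 1.15, and Slc1a5 (ASCT2), another glutamine importer, fell by 0.88. Slc38a2 (SNAT2), a close relative of Slc38a1, rose by 0.63 at the same time.

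**Figure D2:**
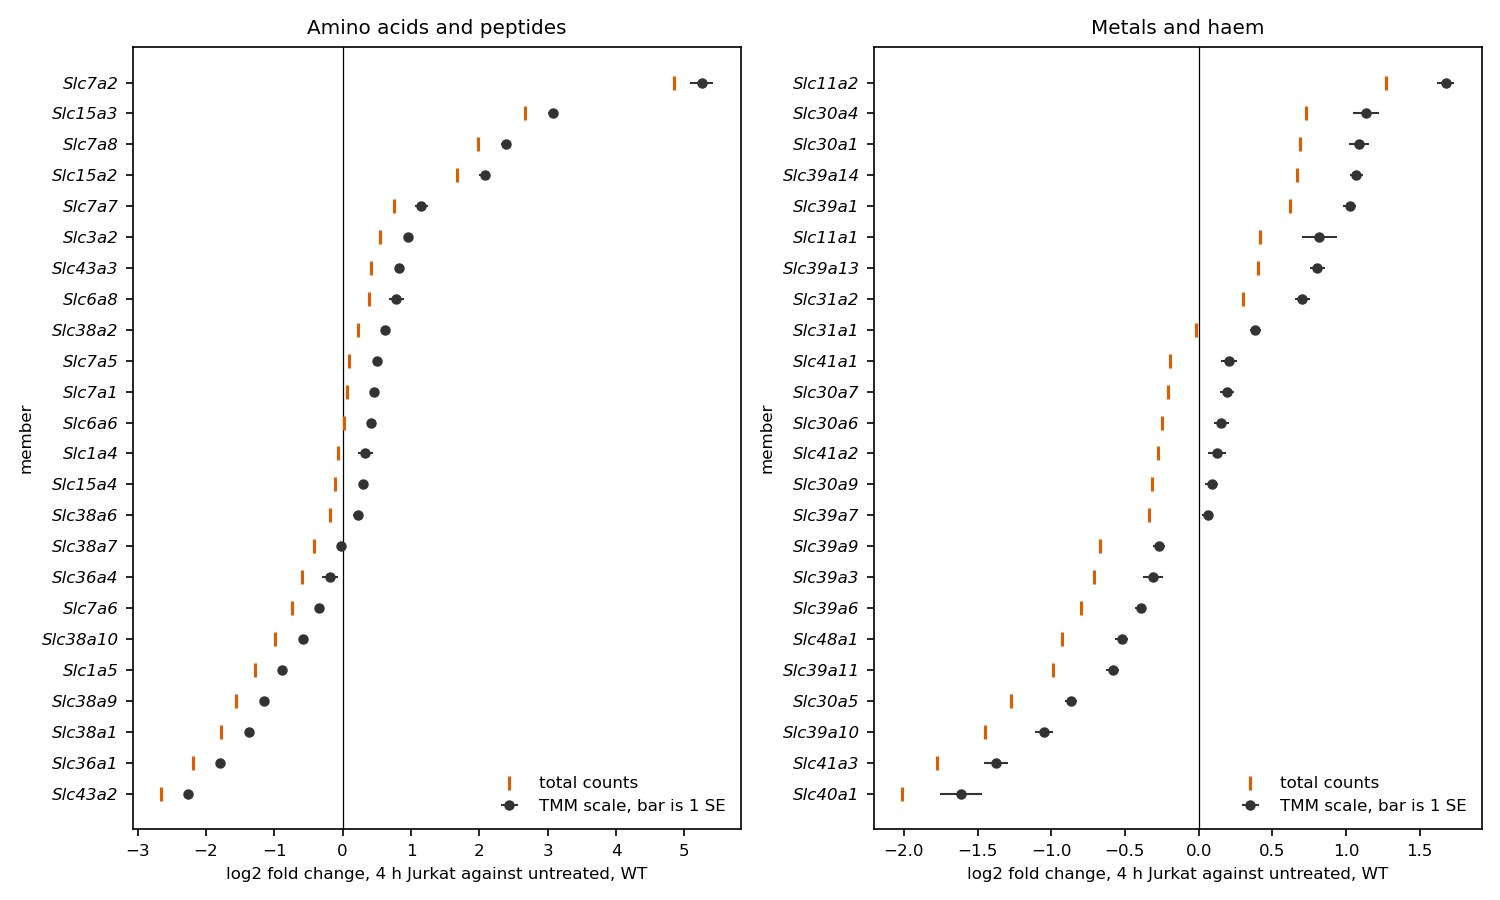
Log2 fold change at 4 h Jurkat against untreated WT cells for the 24 amino acid and peptide carriers (left) and the 24 metal and haem carriers (right). Black points with bars are the TMM-scaled estimate with 1 SE, and orange ticks are the estimate on total counts. Slc7a2 was highest at 5.26, Slc40a1 lowest among metal carriers at -1.61, and on total counts 9 and 8 of the members of these classes were called higher.

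Metal carriers were called in both directions, with 12 higher and 9 lower of 24 in WT at 4 h Jurkat. On the TMM scale 38.4% of genes at 5 CPM or more were higher and 47.9% lower. With total counts 8 metal carriers were higher and 15 lower. Slc11a2 (DMT1), which brings ferrous iron across the plasma and endosomal membranes, went from 26.3, 25.7 and 24.7 CPM to 83.9, 80.6 and 80.6 CPM, a rise of 1.68 (SE 0.06, FDR 1.08e-20). Slc40a1 (ferroportin), the iron exporter, moved the other way, from 45.4, 31.2 and 28.5 CPM to 11.9, 10.6 and 11.8 CPM, a fall of 1.61 (SE 0.142, FDR 1.82e-11). Untreated libraries spread widely for Slc40a1, but the groups did not overlap. Slc11a1 (NRAMP1), the metal pump of the phagosome, stood at 42.9, 36.2 and 35 CPM before and at 68.4, 71.5 and 61.3 CPM after (log2 change 0.82, SE 0.121, FDR 4.83e-07). Slc25a37 (mitoferrin 1), which takes iron into mitochondria, fell by 0.78, and Slc48a1 (HRG1), which moves haem out of the lysosome, fell by 0.52.

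Among zinc carriers the exporter Slc30a1 (ZnT1) rose by 1.09 and the vesicular Slc30a4 (ZnT4) by 1.14. The importers Slc39a14 (ZIP14) and Slc39a1 (ZIP1) rose by 1.07 and 1.02. Slc39a14 stood at 50.5, 49.1 and 50.4 CPM in untreated cells and at 113, 102 and 99.8 CPM at 4 h. Slc39a10 (ZIP10) fell by 1.05, from 59.1, 52.5 and 50.96 CPM to 26.5, 27.5 and 24.5 CPM, so importers of zinc were called in both directions. A list of 18 other genes of metal handling showed 13 higher and 4 lower (9 and 4 on total counts), with a median log2 change of 0.62. The ferritin chains Fth1 and Ftl1 rose by 1.41 and 1.29, the haem oxygenase Hmox1 by 2.31 and the metallothionein Mt2 by 2.26, while the transferrin receptor Tfrc fell by 0.74 and the iron reductase Steap3 by 0.69.

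Of 34 mitochondrial carriers, the largest class, 20 were lower and 10 higher in WT at 4 h Jurkat. On total counts 25 were lower and 7 higher. Among genes at 5 CPM or more 47.9% were lower and 38.4% higher on the TMM scale, so falls also outnumbered rises there. Slc25a22, which brings glutamate into the matrix, was the exception in size. It stood at 55.1, 55.9 and 62.4 CPM in untreated WT cells and at 545, 578 and 570 CPM at 4 h, a rise of 3.29 (SE 0.11, FDR 1.88e-21), with a wide gap between the groups. Slc25a33, a carrier of pyrimidine nucleotides, rose by 1.31, and Slc25a20, the carnitine and acylcarnitine carrier of fatty acid oxidation, by 0.93. Slc25a53 and Slc25a35 both fell by 1.48. The abundant Slc25a5 stayed at 268, 276 and 272 CPM, against 270, 281 and 263 CPM before (log2 change 0.01, FDR 0.901, and -0.40 on total counts).

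Ion carriers were split, with 10 higher and 12 lower of 22, but only 2 were higher and 15 lower on total counts. On the TMM scale 38.4% of genes at 5 CPM or more were higher and 47.9% lower. Slc26a11, an anion transporter, had the largest fall of all members. It stood at 14.8, 14.6 and 14.8 CPM in untreated WT libraries and at 1.89, 1.67 and 2.10 CPM at 4 h Jurkat, a log2 change of -2.96 (SE 0.0874, FDR 1.07e-22). It was lower in every treated library than in any untreated one.

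Sugar carriers, a class of only 9, were lower in 7 and higher in 1, and 4 of the 7 falls were at least 2-fold. Among genes at 5 CPM or more 47.9% were lower and 38.4% higher. Slc2a8 (GLUT8), an intracellular glucose transporter, fell by 1.87 (SE 0.0810, FDR 1.03e-18) from 10.3, 10.2 and 9.86 CPM to 3.02, 2.63 and 2.61 CPM. Slc45a4 fell by 1.72 and Slc37a4, which carries glucose 6-phosphate into the endoplasmic reticulum, by 1.47. The 1 that rose was Slc5a3, the sodium-coupled importer of myo-inositol, by 0.98. On total counts Slc5a3 was still higher, by 0.57, and Slc5a6, not called on the TMM scale, was called lower (-0.58). Of 20 nucleotide sugar carriers 11 fell and 4 rose, and on total counts 17 fell and 1 rose. Slc35c1, which brings GDP-fucose into the Golgi, fell by 1.64 (SE 0.0582, FDR 8.41e-21) from 57.5, 63.3 and 69.4 CPM to 21.7, 19.3 and 19.8 CPM.

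The smaller classes followed no single direction. Of 10 organic ion and vesicular carriers, 5 rose and 4 fell, among them Slc22a5 (OCTN2), the carnitine importer, which rose by 1.14, and Slco2b1, an uptake carrier of organic anions. Slco2b1 stood at 9.39, 7.55 and 7.18 CPM before and at 1.42, 1.97 and 1.44 CPM at 4 h, a fall of 2.32 (SE 0.21, FDR 2.96e-11). Of 4 carriers of monocarboxylates and organic acids, 3 fell and Slc16a10 (TAT1), which carries aromatic amino acids in spite of its family number, rose. Slc16a10 went from 29.2, 27.04 and 27.1 CPM to 76.8, 82.6 and 75.4 CPM (log2 change 1.49, SE 0.0767, FDR 6.44e-17). Of 7 carriers of lipids, choline and bile acids 6 fell and 1 rose, and of 6 vitamin carriers 4 fell and 1 rose. Neither of the 2 nucleoside carriers, Slc29a1 and Slc29a3, was called. On total counts 3 organic ion and vesicular carriers were higher and 5 lower, 1 carrier of monocarboxylates and organic acids was higher and 3 lower, 1 of lipids, choline and bile acids was higher and 6 lower, 1 of vitamins was higher and 5 lower, and both nucleoside carriers were lower, Slc29a1 by a change of -0.46 and Slc29a3 by -0.40.

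A list of carriers that sit in the endosome or lysosome cut across these classes. Of 13 tested, 4 rose and 8 fell at 4 h Jurkat in WT (3 and 10 on total counts), with a median log2 change of -0.64. Those that rose were Slc15a3, Slc11a2 and Slc11a1, given above, and Slc15a4 (PHT1), a histidine and peptide carrier needed for endosomal Toll-like receptor signalling, by 0.30 (a change of -0.11 on total counts). Those that fell included Slc17a9, a vesicular nucleotide carrier, by 1.09, Slc46a3 by 0.86, Slc17a5, which exports sialic acid, by 0.68, and the sodium-proton exchanger Slc9a9 by 0.86. Of 24 carriers and partners whose symbols do not start with Slc, 8 rose and 10 fell (4 and 18 on total counts). The adaptor of Slc15a4, listed under its older symbol 5430427O19Rik (Tasl), rose by 0.79. Emb, a chaperone of the lactate carriers, fell by 1.80. The lysosomal cystine exporter Ctns fell by 0.91 and the phosphate exporter Xpr1 by 1.13. A list of 32 genes of the amino acid response, the program that the factor ATF4 drives when amino acids run short, showed 21 higher and 5 lower (14 and 14 on total counts), with a median log2 change of 0.34. Atf4 rose by 1.10, Asns, which makes asparagine, by 1.70 and Chac1, which degrades glutathione, by 3.43, while Psph of serine synthesis fell by 0.84.

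**Figure D3:**
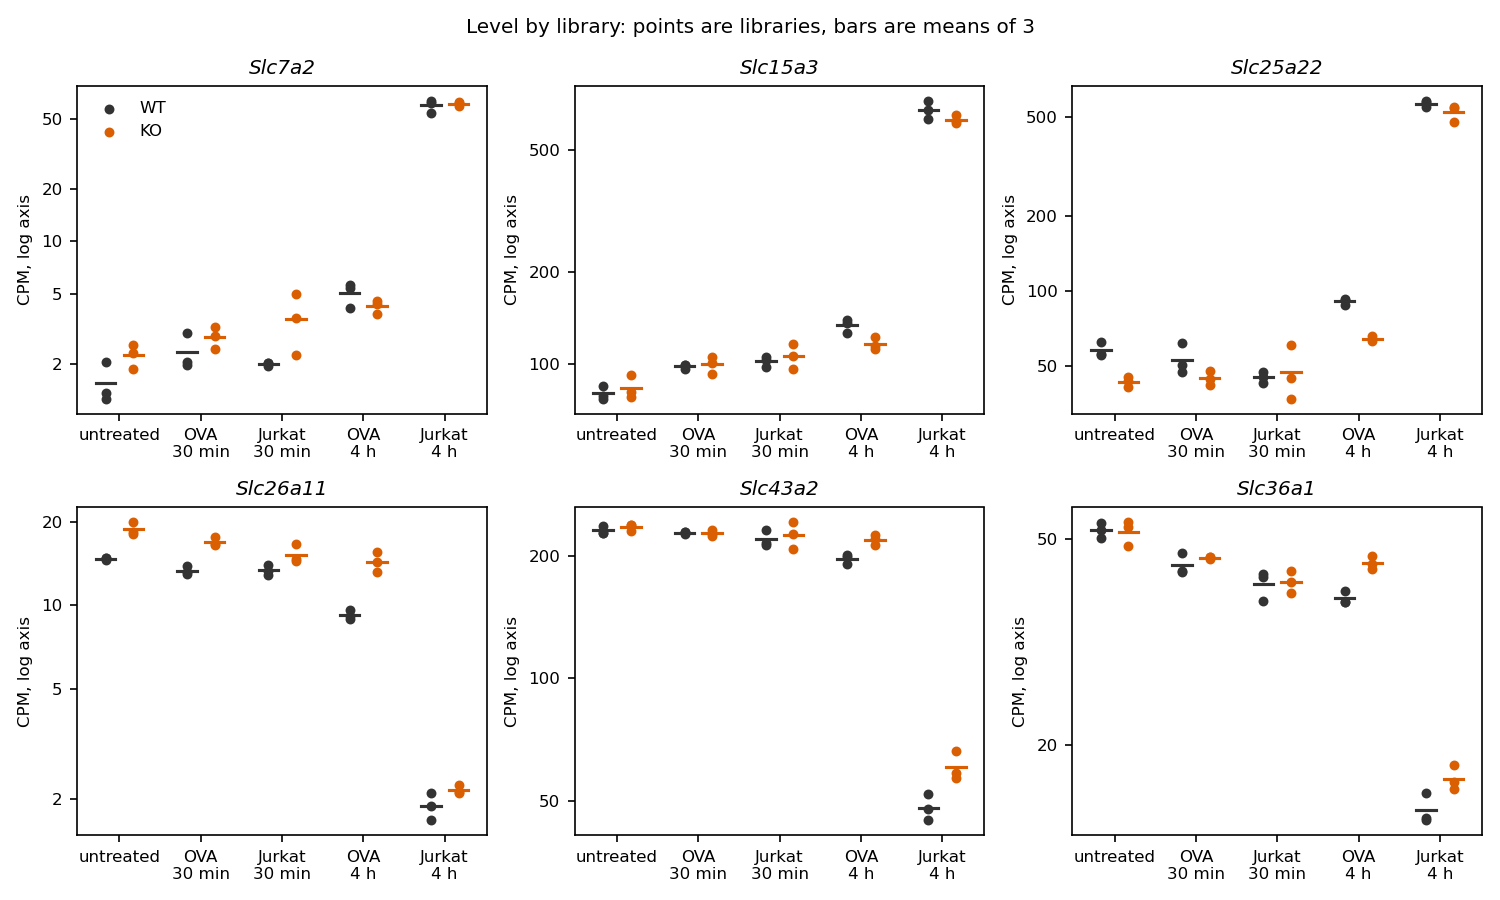
Level of 6 members in CPM on a log axis in each of the 30 libraries, for the 5 conditions. Black points are WT, orange points KO, and bars are the means of 3 libraries. Slc7a2, Slc15a3 and Slc25a22 were highest and Slc26a11, Slc43a2 and Slc36a1 lowest at 4 h Jurkat in both genotypes.

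T-cell genes were higher in the Jurkat groups. Of a list of 27 tested, 21 were called higher and 5 lower at 4 h Jurkat in WT, and their summed level was 299.7 to 307 CPM in untreated WT libraries and 349 to 393 CPM at 4 h Jurkat. Cd28, Cd7 and Cd5 are in the list and were already counted in untreated cells. The 13 genes of the list with a mean under 1 CPM in untreated cells of both genotypes were summed apart, a choice made after the values were seen. Their sum was 3.18 to 3.32 CPM in untreated WT libraries, 39.9 to 41.9 CPM at 30 min Jurkat and 86.8 to 116 CPM at 4 h Jurkat, and in KO 3.003 to 4.33 CPM, 19.1 to 29.2 CPM and 64.3 to 82.9 CPM. Over the same time in WT, the summed level of 8 genes of conventional dendritic cells type 2 went from 1708 to 1763 CPM to 881 to 945 CPM, and that of 9 genes of type 1 from 4996 to 5341 CPM to 3860 to 4133 CPM. Within the type 1 list the means of Xcr1 (89.9 to 159.6 CPM), Clec9a (150.9 to 209.0 CPM) and Cadm1 (84.3 to 86.4 CPM) were higher. Those of Batf3, Irf8, Itgae, Tlr3, Wdfy4 and Naaa were lower. Other lists rose in sum: the plasmacytoid sum went from 3242 to 3303 CPM to 4260 to 4995 CPM, and the stromal sum from 795 to 902 CPM to 1169 to 1340 CPM. Plasmacytoid genes moved both ways. The means of Ly6d (202.6 to 629.3 CPM), Bst2 (467.7 to 979.7 CPM), Spib, Tcf4, Runx2 and Klk1 were higher. Those of Siglech (800.1 to 717.2 CPM), Ccr9 (270.9 to 215.6 CPM), Pacsin1, Cd300c and Cox6a2 were lower. Neither the source of the T-cell counts nor the part of these genes in the changes of the solute carriers was tested.

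Promoter sequence was matched by Entrez gene number to RefSeq for 122 of the 166 members. Where a gene had several promoters, the one nearest its start in the count table was taken. The windows are the 250 bases before the gene start on build GRCm38.p6, written 5′ to 3′ on the gene's strand. Shown first are the largest rises and falls at 4 h Jurkat in WT among the matched members: Slc25a22 (chr7:141437875-141438124, minus strand), Slc7a8 (chr14:54781887-54782136, minus strand), Slco2b1 (chr7:99711341-99711590, minus strand) and Slc43a2 (chr11:75531444-75531693, plus strand).
Slc25a22: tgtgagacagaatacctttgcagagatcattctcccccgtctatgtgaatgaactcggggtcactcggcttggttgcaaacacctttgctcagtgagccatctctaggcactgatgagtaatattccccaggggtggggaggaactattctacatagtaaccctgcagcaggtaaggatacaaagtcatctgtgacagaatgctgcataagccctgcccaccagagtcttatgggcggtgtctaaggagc
Slc7a8: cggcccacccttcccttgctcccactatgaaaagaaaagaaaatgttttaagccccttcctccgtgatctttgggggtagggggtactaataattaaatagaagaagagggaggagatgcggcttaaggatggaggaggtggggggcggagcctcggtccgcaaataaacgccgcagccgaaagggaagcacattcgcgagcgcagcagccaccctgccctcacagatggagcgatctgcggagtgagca
Slco2b1: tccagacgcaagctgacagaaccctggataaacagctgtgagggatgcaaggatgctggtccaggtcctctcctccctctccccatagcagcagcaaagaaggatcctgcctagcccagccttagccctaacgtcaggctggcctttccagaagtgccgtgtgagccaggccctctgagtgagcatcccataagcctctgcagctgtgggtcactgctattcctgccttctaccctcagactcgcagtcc
Slc43a2: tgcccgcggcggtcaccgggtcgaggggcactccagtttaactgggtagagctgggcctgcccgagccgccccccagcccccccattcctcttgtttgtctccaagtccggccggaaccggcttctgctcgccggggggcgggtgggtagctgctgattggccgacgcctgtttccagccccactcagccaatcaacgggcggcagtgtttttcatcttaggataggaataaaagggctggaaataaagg
The search covered 3 motifs on both strands: the core of the interferon-stimulated response element, which is 2 copies of GAAA with any 2 bases between them, TGATGNAA, the core of the amino acid response element, and TCACGTG, the core of the CLEAR element bound by TFEB and its relatives. None of the 4 windows held any of them.

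The interferon motif was found in 3.05% of the 18310 promoters of genes in the count table and in 1.64% of the members' promoters (2 members, Slc25a15 and Slc37a1). The amino acid response motif was found in 3.13% of all promoters and 2.46% of the members' (3 members, Slc50a1, Slc7a7 and Slc9a9). The CLEAR core was found in 3.71% of all promoters and 9.84% of the members' promoters. These were 12 members: Slc12a7, Slc20a1, Slc25a13, Slc25a14, Slc25a33, Slc25a36, Slc33a1, Slc35a5, Slc35e3, Slc36a1, Slc37a3 and Slc38a7. Among them, Slc36a1 (chr11:55204090-55204339, plus strand) fell by 1.79 and Slc25a33 (chr4:149774268-149774517, minus strand) rose by 1.31 at 4 h Jurkat in WT, so both directions occurred among carriers of the motif. The CLEAR core was found in 1 of 11 promoters of members at least 2-fold higher there, and in 1 of 13 of those at least 2-fold lower. The shares over all promoters cover genes of any level, and no share was taken for genes of like level to the members. Capitals mark the match, read on the strand shown as CACGTGA.
Slc36a1: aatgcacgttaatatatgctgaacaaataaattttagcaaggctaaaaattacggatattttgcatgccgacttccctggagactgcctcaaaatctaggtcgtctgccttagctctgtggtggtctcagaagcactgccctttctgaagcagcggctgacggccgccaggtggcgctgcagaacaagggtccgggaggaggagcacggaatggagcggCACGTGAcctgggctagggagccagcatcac
Slc25a33: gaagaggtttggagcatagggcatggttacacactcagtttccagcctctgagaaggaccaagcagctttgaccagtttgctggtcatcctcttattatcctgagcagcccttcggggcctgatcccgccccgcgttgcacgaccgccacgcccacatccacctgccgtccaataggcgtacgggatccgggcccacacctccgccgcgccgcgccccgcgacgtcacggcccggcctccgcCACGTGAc
The match lay 31 to 25 bases before the start in Slc36a1 and 8 to 2 bases before it in Slc25a33. A match describes these letters and does not show that a factor binds there.

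In KO cells most carriers were also called at 4 h Jurkat. Against untreated KO cells 57 members were higher and 82 lower, 139 in all, where 78.5% of all genes tested and 85.9% of genes at 5 CPM or more were called. On total counts 38 were higher and 113 lower, with the median over all genes at -0.37. Without replicate 2 of KO at 4 h Jurkat, the library with more ribosomal RNA, 140 members were called. In both genotypes 136 members were called, all of them in the same direction, and 18 were called in neither. These were 81.9% of members, where 80.9% of genes at 5 CPM or more and 72.6% of all genes were called in both genotypes in the same direction, so the count is close to that of other genes. Amino acid carriers counted 14 higher and 7 lower of 24, metal carriers 12 and 9 of 24, mitochondrial carriers 10 and 18 of 34, and sugar carriers 1 and 8 of 9.

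The genes at both ends of the range were those seen in WT. Slc7a2, a member only through the groups where it was high, went from 2.56, 2.30 and 1.88 CPM to 61.1, 62.5 and 59.2 CPM in KO (log2 change 4.76, SE 0.159, FDR 2.22e-21). Slc25a22 went from 41.1, 43.5 and 45.2 CPM to 545, 474 and 541 CPM (3.59, SE 0.111, FDR 4.07e-22). Slc26a11 went from 18.1, 18.5 and 19.98 CPM to 2.11, 2.09 and 2.24 CPM (-3.13, SE 0.0820, FDR 7.92e-24). At 4 h Jurkat the libraries of both genotypes were close to each other in these 3 genes, and none of the 3 was called between KO and WT at that time.

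OVA for 4 h changed fewer carriers and by less. In WT 26 members were higher and 31 lower than in untreated cells, where 23.5% of all genes and 29.6% of genes at 5 CPM or more were called, so 57 of 166 members lay near the share of other genes. Only Slc7a2 changed at least 2-fold, where 2.07% of all genes did, to 5.66, 5.46 and 4.19 CPM from 2.05, 1.27 and 1.37 CPM, a rise of 1.70 (SE 0.207, FDR 3.84e-07). It was a member only through the groups where it was high, so this rise too is a description. Metal carriers were called higher in 9 of 24 and lower in 2, and amino acid carriers higher in 6 and lower in 4 of 24. Slc16a10 rose by 0.94 (SE 0.0765, FDR 2.18e-10) to 56.1, 59.5 and 44.1 CPM. Slc11a2 rose by 0.85 (SE 0.0602, FDR 1.27e-11) to 44.8, 48.1 and 45.1 CPM. Both genes lay above all untreated libraries, given above.

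Slc15a3 rose by 0.74 to 136, 139 and 126 CPM (SE 0.0651, FDR 1.08e-09), Slc11a1 by 0.72, Slc25a22 by 0.65 and Slc39a13, a zinc carrier of intracellular vesicles, by 0.63. The largest falls were those of Slc26a11, to 8.92, 9.17 and 9.61 CPM (log2 change -0.67, SE 0.0648, FDR 5.49e-09), and of Slco2b1, also by 0.67. Slc36a1 fell by 0.44. Nucleotide sugar carriers were lower in 4 of 20 and higher in none, at the same threshold, and ion carriers lower in 6 and higher in 2 of 22. The amino acid response list had 7 higher and 2 lower of 32, the metal handling list 6 higher and 1 lower of 18, and the endosomal and lysosomal carriers 3 higher and 5 lower of 13. The 13 T-cell genes stayed at 2.76 to 3.42 CPM in these libraries.

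In KO, OVA for 4 h gave 15 higher and 14 lower, 29 members, where 11.6% of all genes and 15.3% of those at 5 CPM or more were called. Slc16a10 rose by 0.75, Slc11a2 by 0.68, Slc11a1 by 0.59 and Slc15a3 by 0.47, and Slc26a11 fell by 0.39. Slc7a2, a member only through the groups where it was high, rose by 0.94. The difference between the genotypes' responses to OVA at 4 h was called for 0 members by edgeR's quasi-likelihood test, where 0.0405% of all genes were called, and 20 members had an unadjusted p under 0.05.

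Early changes at 30 min were small and differed by agent. Jurkat cells for 30 min gave 18 higher and 36 lower members in WT, 54 in all, where 28.7% of all genes were called and, among genes at 5 CPM or more, 14.7% were higher and 19.4% lower. Slc25a33 rose by 0.69 (SE 0.0879, FDR 9.92e-07), from 4.45, 4.33 and 4.39 CPM to 7.09, 7.65 and 6.50 CPM. Slc20a1, a sodium-coupled phosphate importer, rose by 0.50 (SE 0.0396, FDR 1.66e-10), from 71.0, 70.5 and 72.0 CPM to 99.5, 99.4 and 102 CPM. Both genes were tightly grouped and the groups were apart. Slc38a2 (SNAT2) fell by 0.48 (SE 0.0461, FDR 6.16e-09) from 262, 249 and 241 CPM to 178, 186 and 176 CPM, although at 4 h it was above the untreated level. Slc15a4 fell by 0.39 (SE 0.0414, FDR 3.48e-08) from 182, 189 and 189 CPM to 141, 143 and 144 CPM. Slc27a3, a fatty acid transport protein near the threshold of membership, fell by 0.76 (SE 0.0992, FDR 1.38e-06).

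KO cells at 30 min Jurkat gave 14 higher and 21 lower members, 35 in all, against 17% of all genes. Slc20a1 rose by 0.43, Slc25a33 by 0.41, and Slc38a2 fell by 0.28 and Slc15a4 by 0.35. The difference between genotypes in this response was called for 0 members by edgeR's test, against 0.00675% of all genes (13 members at an unadjusted p under 0.05), and for 1 member when replicate 2 of KO at 30 min Jurkat was left out.

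OVA for 30 min gave 18 higher and 16 lower members in WT, where 10.7% of all genes and 14.3% of those at 5 CPM or more were called. The rises were led by Slc36a4, a carrier of proline and tryptophan, by 0.45 (SE 0.101, FDR 0.00395), and included Slc25a33 by 0.37 and Slc20a1 by 0.34, both of which also rose at 30 min Jurkat. These comparisons share their untreated libraries. In KO 7 were higher and 5 lower, where 3.77% of all genes were called. Without replicate 3 of KO at 30 min OVA, the shallow library, 7 members were called in KO, 4 were called without replicate 2 and 6 without replicate 2 of untreated KO. The difference between genotypes was called for 0 members and 0% of all genes by edgeR's test, and 11 members had an unadjusted p under 0.05.

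Jurkat cells and OVA were also compared directly at the same time, averaged over genotypes. At 30 min 13 members were higher and 38 lower with Jurkat cells, where 29.9% of all genes were called. Slc30a1 was higher by 0.32 (SE 0.051, FDR 1.73e-05), and Slc38a2 was lower by 0.48 on the log2 scale (difference -0.48, SE 0.033, FDR 5.37e-12). At 4 h 61 were higher and 88 lower, where 82.6% of all genes were called, and 34 higher and 120 lower on total counts. Slc25a22 was higher by 2.83 and Slc15a3 by 2.39, while the differences for Slc26a11, Slco2b1 and Slc43a2 were -2.52, -2.18 and -1.94. Slc7a2 was higher by 3.69, a description only, since it was a member only through the groups where it was high.

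No carrier was called 2-fold apart between KO and WT in any of the 5 conditions, and 12 to 47 of the 166 members were called at any size. Over all genes, a called change of at least 2-fold was found in 0.966% in untreated cells, 1.09% at 30 min OVA, 0.709% at 30 min Jurkat, 1.22% at 4 h OVA and 1.09% at 4 h Jurkat. In untreated cells 6 members were higher and 6 lower in KO, where 9.97% of all genes and 10.5% of those at 5 CPM or more were called, against 12 of 166 members. At 30 min OVA 12 were higher and 14 lower (12.4% of all genes), at 30 min Jurkat 9 and 4 (9.25%), at 4 h OVA 8 and 11 (12.6%) and at 4 h Jurkat 27 and 20 (22.9%, and 27.2% of genes at 5 CPM or more). The split depended on the scaling: on total counts it was 8 higher and 4 lower in untreated cells, 17 and 11 at 30 min OVA, 12 and 3 at 30 min Jurkat, 15 and 7 at 4 h OVA and 55 and 14 at 4 h Jurkat. With DESeq2's size factors it was 5 and 9, 7 and 15, 9 and 4, 7 and 11, and 23 and 23. These counts also moved when single libraries were left out. Untreated cells gave 7 without the second WT library, 30 min OVA 8 without the second KO and 10 without the second WT library, and 30 min Jurkat 8 and 7 without the second KO or WT library. At 4 h OVA leaving out KO replicate 1, 2 or 3 gave 11, 9 or 12, and leaving out WT replicate 1 or 2 gave 9 or 10. At 4 h Jurkat the count was 29 without the second WT library and 38 without the second KO library. Over the 5 conditions, 90 members were never called and 51 were called once. The like counts over all genes were not taken, so these describe the members only.

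Only 2 members were called in 1 direction in all 5 conditions, and how many other genes were was not counted. They were Slco5a1, a member of the organic anion transporter family, and Slc4a8, a sodium-driven exchanger of chloride and bicarbonate. Slco5a1 stood at 16.4, 14.04 and 14.7 CPM in untreated WT and at 11.2, 9.33 and 10.3 CPM in untreated KO libraries (log2 difference -0.55, SE 0.0829, FDR 4.22e-05). Its difference was -0.36 at 30 min OVA, -0.50 at 30 min Jurkat, -0.57 at 4 h OVA and -0.36 at 4 h Jurkat. At 30 min OVA the call was lost without the first KO library (-0.26, FDR 0.0807). Slc4a8 stood at 14.2, 15.2 and 15.5 CPM in untreated WT and at 11.5, 11.1 and 11.5 CPM in untreated KO (-0.40, SE 0.0719, FDR 0.000373). Its difference lay between -0.44 and -0.40 in the 5 conditions, and in each of them all 3 KO libraries were below all 3 WT libraries. No single library ended its call in any condition.

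Slc26a11, the gene that fell most with Jurkat cells, was higher in KO in 3 conditions. In untreated cells it stood at 14.8, 14.6 and 14.8 CPM in WT and at 18.1, 18.5 and 19.98 CPM in KO (0.36, SE 0.0610, FDR 0.000204). At 30 min OVA the difference was 0.35 (SE 0.0648, FDR 0.000516). At 4 h OVA it was 0.64 (SE 0.0651, FDR 6.46e-08), from 8.92, 9.17 and 9.61 CPM in WT and 15.6, 14.4 and 13.2 CPM in KO. The groups did not overlap in these conditions. At 30 min and 4 h with Jurkat cells it was not called, and its difference in response to 4 h OVA was 0.29 (SE 0.0892) with an FDR of 0.383.

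**Figure D4:**
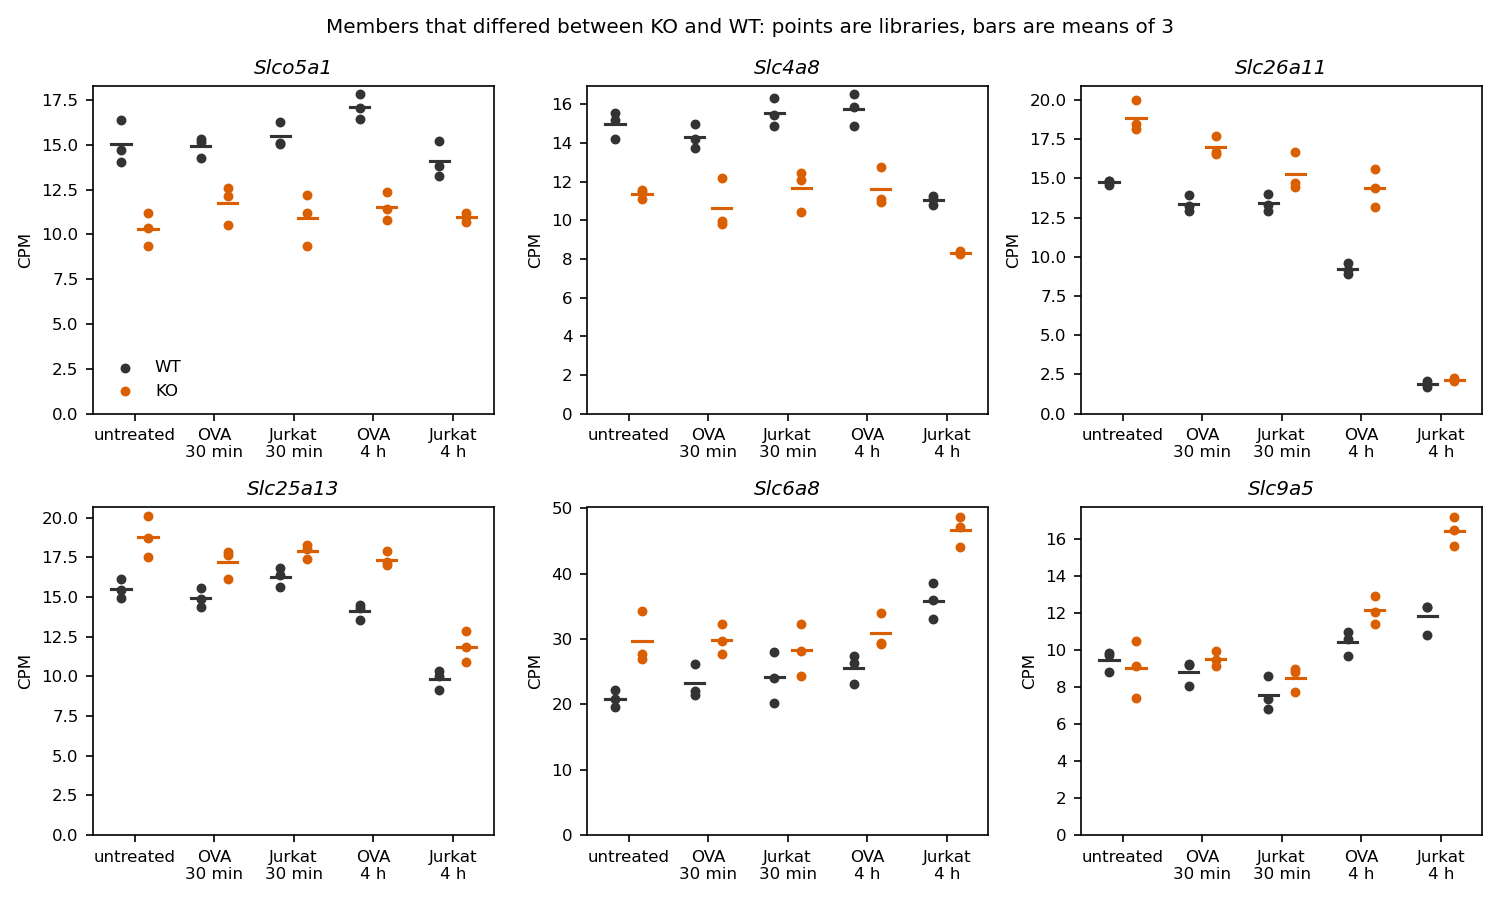
Level of 6 members in CPM on a linear axis from 0 in each library, WT in black and KO in orange, with bars for the means of 3 libraries. Slco5a1 and Slc4a8 were lower in KO in all 5 conditions, and Slc26a11 was higher in KO in untreated cells and with OVA.

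Slc6a8, the creatine transporter, was higher in untreated KO cells, at 34.3, 27.7 and 26.9 CPM against 22.1, 20.8 and 19.6 CPM in WT (0.51, SE 0.110, FDR 0.0023). It was also higher at 30 min OVA (0.37) and 4 h Jurkat (0.38). The call at 30 min OVA was lost without any of 4 libraries (KO 2 and 3, WT 2 and 3), and that at 4 h Jurkat without the third WT library (0.32, FDR 0.0563). Slc25a13 (citrin), a mitochondrial exchanger of aspartate and glutamate, was higher in KO in untreated cells (0.28), at 30 min OVA (0.22), at 4 h OVA (0.30) and at 4 h Jurkat (0.27), though the call at 30 min OVA was lost without any of 4 libraries (KO 1 and 2, WT 2 and 3). Its relative Slc25a12 (aralar) was lower in KO at 4 h Jurkat, at 200, 174 and 192 CPM against 221, 243 and 226 CPM (-0.28, SE 0.0452, FDR 4.51e-05). Slc25a22 was lower in KO at 4 h OVA, at 64.2, 65.7 and 63.0 CPM against 87.8, 91.7 and 92.9 CPM (-0.50, SE 0.104, FDR 0.00119). In untreated cells its difference was -0.42, and the call was lost without the first KO (-0.38) or the third WT library (-0.36). Slc7a2 was higher in KO at 30 min Jurkat, at 5.01, 2.26 and 3.65 CPM against 1.95, 2.03 and 2.03 CPM (0.86, FDR 0.00816), but without the first KO library the difference was 0.55 (FDR 0.0951).

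At 4 h Jurkat 9 of 24 amino acid carriers were higher in KO and 3 lower. Of 22 ion carriers 2 were higher and 6 lower, and of 34 mitochondrial carriers 6 were higher and 1 lower. Among genes at 5 CPM or more 27.2% were called in either direction. Slc9a5, a sodium-proton exchanger, stood at 15.6, 17.2 and 16.5 CPM in KO and at 12.4, 10.9 and 12.3 CPM in WT (0.47, SE 0.0936, FDR 0.000498). Slc39a14 stood at 130, 127 and 127 CPM in KO and at 113, 102 and 99.8 CPM in WT (0.28, SE 0.0429, FDR 2.27e-05). Slc43a2 stood at 66.4, 58.6 and 56.8 CPM in KO and at 51.9, 47.7 and 44.8 CPM in WT (0.33, FDR 9.25e-05). In all 3 genes every KO library lay above every WT library. Slc9a5 and Slc43a2 were chosen by a rule that asks for no overlap, so this is a description. In this comparison 64 of 166 members did not overlap. Slco4a1, another organic anion carrier, was lower in KO, at 88.4, 86.7 and 91.0 CPM against 107, 125 and 98.8 CPM (-0.31, SE 0.056, FDR 0.000170). In the same libraries the sum of the 13 T-cell genes was lower in KO. The plasmacytoid dendritic cell sum was lower too (3446 to 3831 CPM in KO and 4260 to 4995 CPM in WT). Of its 11 genes 8 were called lower and 1 higher. The sum of 8 neutrophil and erythroid genes was 113 to 118 CPM in KO and 144 to 150.4 CPM in WT. The genes of type 2 conventional dendritic cells were higher in KO, at 1035 to 1102 CPM against 881 to 945 CPM, as were the basophil and mast cell genes (102 to 135 CPM against 54.1 to 68.6 CPM), the stromal genes (1451 to 1780 CPM against 1169 to 1340 CPM) and the 6 B-cell genes (31.1 to 31.9 CPM against 24.9 to 27.2 CPM). The part of these lists in the differences of the carriers was not tested.

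The response to Jurkat cells at 4 h itself differed between genotypes in 7 members, 5 with a larger value in KO and 2 with a smaller one, where 4.26% of all genes were called. On total counts 18 members were called. Slc9a5 rose by 0.32 in WT on the TMM scale, which total counts gave as -0.08 and did not call. In KO Slc9a5 rose by 0.87 (0.53 on total counts), and the difference between the genotypes was 0.55 on the TMM scale (FDR 0.0192). Slc43a2 fell in both, by 2.26 in WT and 1.95 in KO, with a difference of 0.30 (FDR 0.0222). Slco4a1 rose by 0.30 in WT on the TMM scale, which total counts gave as -0.10, and in KO its change was -0.05 (FDR 0.465), a difference of -0.35 (FDR 0.0111). Without single libraries between 2 and 9 members were called: 4 without the first KO library at 4 h Jurkat, 3 and 4 without the first or second untreated KO library, 2 without the second WT library at 4 h Jurkat and 3 without the second untreated WT library. Slco4a1 alone was called whichever of the 12 libraries was left out, and it was lost when only the 4 groups compared were fitted.

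**Figure D5:**
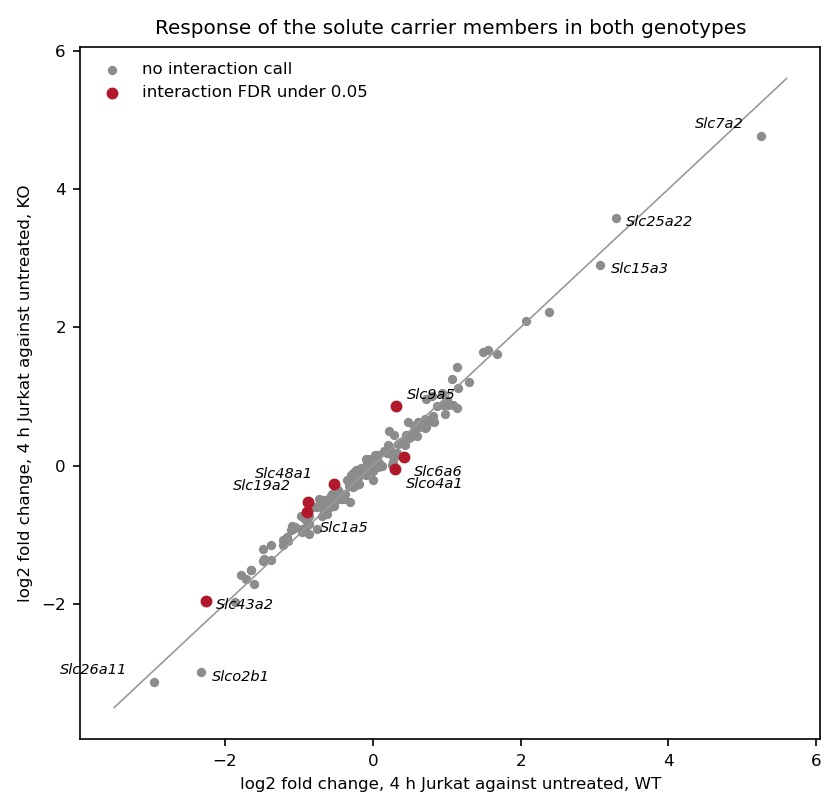
Log2 fold change at 4 h Jurkat against untreated cells in WT (horizontal) and KO (vertical) for the 166 members, with the line of equal change. Red points are the 7 members whose response differed between genotypes at an FDR under 0.05. Slc7a2 lies at 5.26 and 4.76, and Slc26a11 at -2.96 and -3.13. On total counts the median over all genes moved by -0.42 in WT and -0.37 in KO.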

How the data were processed

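Trizol-extracted RNA went into TruSeq RNA Library Prep Kit v2 libraries, per the labels' protocols. A single table of raw counts by gene, on the mm10 build, was deposited by the authors. STAR 2.5, Subread, featureCounts 1.5.0-p1 and DESeq2 are named in the submitters' processing notes. Not given in the sources used here were annotation, use of strand and treatment of human reads, so counts of overlapping genes and near-identical copies are uncertain.

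From the counts, genes were kept with filterByExpr by group (14808 genes, 99.99% of counts), scaled with TMM and fitted over all 30 libraries with edgeR 4.0.16 in R 4.3.3. Quasi-likelihood F tests were adjusted over all genes by Benjamini-Hochberg, and an FDR under 0.05 was called. The common coefficient of variation between libraries was 0.0515. SE is the absolute log2 change over the square root of F. Counting depth was 9.73 M to 51.6 M. Alternatives were DESeq2 1.42.0 (its size factors and Wald test), total counts, other filters, replicate blocks, only the groups compared and single libraries left out. No 2 libraries of a group were copies (chi-square per gene 2.41 or more). Length is the union of exons in GENCODE M21.

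The members and all lists were chosen with earlier results of these data known. Full statistics went to members called without overlap between the libraries compared, ranked by size (8 rises and 8 falls at 4 h Jurkat in WT, 5 and 5 elsewhere), to the interaction calls of smallest p, to members called 1 way in all 5 genotype comparisons, and to the 3 most abundant and 2 most changed members of each class. Lack of overlap in members so chosen was fixed by the choice and is a description. Slc38a9, Slc7a1, Slc7a5, Slc7a6, Slc1a5, Slc3a2 and other members outside the rule were chosen after their values were seen. Some of these also have SE and FDR: Slc3a2 and Slc11a1 at 4 h Jurkat in WT, and Slc39a14 and Slc25a12 between genotypes at 4 h Jurkat. The response difference of Slc26a11 at 4 h OVA is another. Some members that this rule names are not reported here.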

Additional observations from a re-analysis of the deposited data

Results flagged for a closer look

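The genotypes differed in their response to Jurkat cells at 4 h in 7 members, by edgeR's test of the interaction. The difference in log2 response, KO minus WT, was 0.55 for Slc9a5, 0.35 for Slc19a2, a thiamine importer, 0.30 for Slc43a2, 0.25 for Slc48a1 and 0.22 for Slc1a5, and it was -0.29 for Slc6a6 and -0.35 for Slco4a1. Slc19a2 stood at 8.76, 8.61 and 7.54 CPM in WT and 11.4, 10.5 and 10.3 CPM in KO at 4 h Jurkat, and at 16.9, 15.2 and 13.9 CPM and 15.5, 15.7 and 15.3 CPM in untreated cells (interaction FDR 0.0388). Slc6a6 stood at 620, 713 and 608 CPM in WT and 584, 540 and 562 CPM in KO at 4 h Jurkat, and at 489, 470 and 491 CPM and 551, 491 and 502 CPM in untreated cells (interaction FDR 0.0161). Of the 12 libraries of the 4 groups, leaving out 1 ended the call of Slc19a2 in 10 cases, of Slc1a5 and Slc48a1 in 6 each, of Slc43a2 in 5, of Slc9a5 in 3, of Slc6a6 in 2 and of Slco4a1 in 0. The 13 T-cell genes low in untreated cells were at 86.8 to 116 CPM in WT and 64.3 to 82.9 CPM in KO at 4 h Jurkat, and their part in these differences was not tested.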

How the results depend on the processing

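Of 297 alternative values of the counts of called members, 272 stayed within 1.5 times the count reported. With only the groups compared in the fit, members called between KO and WT at 4 h OVA were 30, those called in KO at 30 min OVA 4 and at 30 min Jurkat 22, and those of the 4 h Jurkat interaction 4. Total counts gave 18 for that interaction. Leaving out single libraries gave, for KO against WT, 7 to 14 in untreated cells, 8 to 24 at 30 min OVA, 7 to 13 at 30 min Jurkat, 9 to 17 at 4 h OVA and 29 to 44 at 4 h Jurkat. In WT it gave 23 to 42 at 30 min OVA, 42 to 54 at 30 min Jurkat, 45 to 57 at 4 h OVA and 143 to 147 at 4 h Jurkat. In KO it gave 4 to 14, 25 to 37, 23 to 26 and 138 to 140. The interactions gave 0, 0 to 1, 0 and 2 to 9, and Jurkat against OVA 43 to 51 and 147 to 150. The cause of these shifts was not tested.

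In WT at 4 h Jurkat, small changes turned sign. Total counts gave -0.34 for Slc39a7, -0.14 for Slc25a3, -0.40 for Slc25a5, -0.33 for Slc9a3r1, -0.37 for Slc7a6os, -0.40 for Slc29a3, -0.40 for Slc35e1 and -0.10 for Slco4a1. Without a filter the values were -0.0292 for Slc25a5, -0.000551 for Slc7a6os, -0.0338 for Slc29a3 and -0.0336 for Slc35e1. DESeq2's size factors gave 0.00595 for Slc29a1, 0.0126 for Slc35a4 and 0.0642 for Slc23a2, and its Wald test 0.0060, 0.0124 and 0.0641. The filter of 5 CPM in 3 libraries gave 0.00595 for Slc35a4 and 0.0570 for Slc23a2, and only the groups compared gave 0.0012 for Slc23a2. Leaving out single libraries gave -0.0217 to 0.0274 for Slc25a5, -0.0194 to 0.0589 for Slc7a6os, -0.0851 to 0.0431 for Slc29a3, -0.0323 to 0.0265 for Slc35e1 and -0.0613 to 0.0271 for Slc23a2.

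The replicate numbers showed no clear pairing of the libraries, though these values cannot exclude it. Same-numbered libraries of different groups had deviations correlated at -0.338 to 0.601 (median 0.0095, 135 pairs). A correlation over 0.1 was found in 45 of these pairs, and in 80 of 270 pairs of different number. Of 30 libraries, 12 correlated best with their own number. With the replicate number as a block, KO against WT gave 13, 26, 13, 20 and 49 members, and 4 h Jurkat 146 in WT and 139 in KO, and no count moved by over 1.5 times. The block shared by genotypes gave 0.00017 for Slc23a2, and the block within genotypes -0.0010 for Slc29a3. Depth limits mainly replicate 3 of KO at 30 min OVA.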
